A study of Mus musculus with 6 samples.

Results

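Small nucleolar RNA (snoRNA) host genes are transcription units whose introns hold snoRNAs, and 8 of them were followed here in mouse regulatory T cells (Treg), namely Gas5, Snhg1, Snhg3, Snhg5, Snhg6, Snhg8, Snhg12 and Snhg15. They were taken by name from the 35275 Ensembl gene identifiers of the deposited expression table. Of the 8, 6 had a row, 5 were expressed highly enough to be tested, and Snhg1 and Snhg8, for which no row was matched, were not analysed here. The table gave fragments per kilobase of gene, relative to each library's total (FPKM), for 6 libraries, 3 from control Treg and 3 from Treg with a deletion of Rcor1, a scaffold protein of the CoREST histone deacetylase and demethylase complex. Control mice carried Foxp3YFPcre alone, an allele that makes Cre and a yellow fluorescent protein (YFP) in cells that express Foxp3, and the labels call them wild type. Mice of the deletion group carried the same allele and a floxed Rcor1, so that Cre acts in Foxp3+ cells. All mice were males of 6 to 8 weeks, and YFP+ cells were sorted after a column that enriches CD4+ cells. The design text names 3 independent biological replicates a group. Strain, litter and date of sorting were not given in the sources used here.

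Most vertebrate snoRNAs are cut out of the introns of host transcripts, and they then guide ribose methylation (box C/D snoRNAs) or pseudouridylation (box H/ACA snoRNAs) of ribosomal and other RNAs. The spliced host transcripts often code for little or no protein. Many of them, like mRNAs of ribosomal proteins, start with a terminal oligopyrimidine tract, and because ribosomes reach their early stop codons they are degraded by nonsense-mediated decay, which makes their level depend on translation as well as transcription. Gas5 was named for its accumulation in growth-arrested mouse fibroblasts, and in human T cells its RNA has been tied to growth arrest by rapamycin, an inhibitor of the mTORC1 kinase.

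The start sites of the host genes are shown because they hold features that several of these genes have and that the choice of members did not use. Of the 8 genes, 7 had an entry in the RefSeq promoter table (GRCm38.p6), with 8 entries in all, since Gas5 had a pair of starts. For Gas5 the start shown is the one within 25 bases of which 14 of its 25 annotated transcripts begin. By the same count the starts shown for Snhg1, Snhg12 and Snhg5 held 3 of 18, 5 of 10 and 3 of 6 transcripts. Those of Snhg8 and Snhg15 held 2 of 3 and 2 of 4. Each window runs 5′ to 3′ from 45 bases before the annotated start to 30 bases from it. Capitals mark TATA or TATAAA where it begins 40 to 20 bases before the start, and the longest run of C and T letters that opens with a C within 10 bases of the start, where that run has at least 5 letters.
Gas5 start, chr1:161035121-161035195, plus strand: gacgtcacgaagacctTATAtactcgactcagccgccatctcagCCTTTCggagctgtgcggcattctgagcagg
Snhg1 start, chr19:8723442-8723516, plus strand: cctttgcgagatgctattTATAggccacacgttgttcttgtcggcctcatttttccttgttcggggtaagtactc
Snhg12 start, chr4:132308633-132308707, plus strand: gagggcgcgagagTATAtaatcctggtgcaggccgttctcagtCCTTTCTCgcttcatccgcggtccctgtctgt
Snhg5 start, chr9:88522868-88522942, minus strand: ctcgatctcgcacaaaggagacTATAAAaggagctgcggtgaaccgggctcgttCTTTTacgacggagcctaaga
Snhg8 start, chr3:123508307-123508381, minus strand: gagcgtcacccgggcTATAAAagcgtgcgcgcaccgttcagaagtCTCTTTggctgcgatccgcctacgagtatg
Snhg15 start, chr11:6528731-6528805, minus strand: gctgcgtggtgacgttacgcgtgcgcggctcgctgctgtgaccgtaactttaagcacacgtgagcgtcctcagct
TATA stood in the stated place on the strand of the gene in 5 of the 8 entries (62.5%), against 5.81% of all 32851 promoters of the table and 8.82% of the 68 entries of cytosolic ribosomal protein genes. The longer TATAAA, every copy of which also holds TATA, stood there in 2 entries (25%), those of Snhg5 and Snhg8, against 1.99% of all promoters. A C at the annotated start with at least 4 further pyrimidines was found in 2 entries (25%), those of Gas5 and Snhg8, against 2.51% of all promoters and 20.6% of those of ribosomal protein genes. With the same run allowed to start anywhere within 10 bases of the annotated start, the shares were 62.5%, 30.7% and 54.4%. Snhg15, shown for contrast, had neither a TATA in that place nor a run of 5. The start of Snhg3 and the other start of Gas5, which are not shown, had no TATA there either. These matches describe letters only, and annotated starts can be off by some bases.

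Inside the 8 genes, on the same strand, the GENCODE annotation (release M21, GRCm38) placed 30 snoRNA entries, of which 10 lay in Gas5, 8 in Snhg1, 5 in Snhg12, 2 each in Snhg3 and Snhg5, and 1 each in Snhg6, Snhg8 and Snhg15. Snord80 and Snora16a are each entered there as a pair of overlapping genes. Box C (TGATGA) in the first 20 bases together with box D (CTGA) in the last 20 was found in 17 entries, and ACA followed by 3 last bases in 7, while 6 had neither. Among the 1507 snoRNA transcripts read from the annotation these shares were 20.5% and 18.0%. Gas5 and Snhg5 held box C/D snoRNAs and no box H/ACA one by this search, Snhg15 held a single box H/ACA snoRNA, and Snhg12 held both kinds. Examples from each tested host are shown with these boxes in capitals, since they are the cargo by which the hosts are defined.
Snord47 in Gas5, chr1:161038082-161038158, plus strand: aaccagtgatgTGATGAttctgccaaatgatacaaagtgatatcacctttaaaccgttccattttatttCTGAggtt
Snord50a in Snhg5, chr9:88521529-88521600, minus strand: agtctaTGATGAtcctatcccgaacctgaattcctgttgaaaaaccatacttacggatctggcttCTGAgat
Snord50b in Snhg5, chr9:88521797-88521868, minus strand: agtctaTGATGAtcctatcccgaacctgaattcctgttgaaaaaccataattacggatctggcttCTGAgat
Snord87 in Snhg6, chr1:9942463-9942549, minus strand: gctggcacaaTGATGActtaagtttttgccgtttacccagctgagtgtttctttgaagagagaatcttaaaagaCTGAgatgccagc
Snord99 in Snhg12, chr4:132310691-132310764, plus strand: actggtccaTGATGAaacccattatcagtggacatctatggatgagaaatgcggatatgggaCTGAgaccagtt
Snora9 in Snhg15, chr11:6528033-6528165, minus strand: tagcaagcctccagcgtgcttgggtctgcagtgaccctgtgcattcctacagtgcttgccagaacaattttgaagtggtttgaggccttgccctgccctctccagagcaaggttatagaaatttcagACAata
The snoRNAs of Snhg5 are near copies of each other: both are 72 bases long and they differ by 1 substitution, C50A, counted from the first base of Snord50a. None of the 30 entries had a row in the expression table. Of 1558 annotated genes of snoRNAs or small Cajal body RNAs in all, 1 had one. The values below are therefore of host transcripts and say nothing of the mature snoRNAs.

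Library depth was alike, at 18538581 to 22349455 fragments, and 11275 to 11658 genes reached 1 FPKM in a library. Rcor1, the targeted gene, was at 16.1, 16.2 and 15.2 FPKM in the controls and at 12.5, 13.0 and 14.2 FPKM in the deletion group. The groups did not overlap, but the difference missed the threshold (log2 fold change -0.24, SE 0.07, adjusted p = 0.0562, limma). These are values over the whole gene, and the exons between the loxP sites were not seen apart. Markers of T cells and Treg (Cd3e, Cd4, Foxp3, Il2ra, Ctla4, Ikzf2 and Tnfrsf18) were all expressed, with a summed level of 996 to 1168 FPKM in controls and 1072 to 1092 FPKM in the deletion group. Of these 7, 1 rose, Ikzf2, a Treg transcription factor, from 47.5 ± 5.93 to 62.5 ± 3.88 FPKM (SD, n = 3 each, adjusted p = 0.0463, limma). Markers of other cell types moved with the groups too. The 9 lens crystallin genes all fell, from a summed 125 to 240 FPKM in controls to 1.47 to 1.81 FPKM in the deletion group, and the 4 fat markers tested all fell. Of 6 B cell markers tested 2 rose (Cd22 and Fcrl1), and their list summed to 25.1 to 46.0 FPKM in controls and 50.9 to 58.1 FPKM in the deletion group. The myeloid sum was 11.5 to 194 FPKM in controls and 4.35 to 371 FPKM in the deletion group, with 0 of 6 past the threshold, and of 3 CD8 and NK markers tested 0 passed it. The part of these markers in the results below was not tested, and in bulk samples fewer cells of a type cannot be told apart from less RNA per cell.

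Gas5 was the host gene that rose. Its level was 66.0, 77.9 and 68.0 FPKM in the controls and 90.1, 92.0 and 106 FPKM in the deletion group. Each of the 3 deletion libraries lay above each of the 3 controls. The mean went from 70.7 ± 6.39 to 96.1 ± 8.78 FPKM (SD, n = 3 each), a log2 fold change of 0.44 (SE 0.09) on the log2(FPKM + 1) scale, with an adjusted p of 0.0259 by limma with Benjamini-Hochberg adjustment over all 11575 tested genes. These levels rest on 3221 to 5491 fragments a library, so counting error is small beside the spread between replicates. An exact permutation test over the 6 libraries gave p = 0.1, the smallest it allows. The call did not survive the loss of most single libraries: the adjusted p was 0.0880 without control 1, 0.0785 without control 3, 0.0585 without deletion 1, 0.0699 without deletion 2 and 0.0882 without deletion 3, while without control 2 it was 0.0154.

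The other tested host genes were higher on average in the deletion group, and none of them passed the threshold. Snhg12, host of Snora16a, Snora44, Snora61 and Snord99, was at 34.0, 52.4 and 42.7 FPKM in the controls and at 48.6, 48.6 and 57.9 FPKM in the deletion group. Control 2 lay above deletion 1 and deletion 2, so the groups overlapped (log2 fold change 0.28, SE 0.15, adjusted p = 0.253, limma). Snhg15, host of Snora9, was at 34.6, 48.2 and 36.3 FPKM in the controls and at 40.7, 51.0 and 52.7 FPKM in the deletion group. Here too control 2 reached into the deletion range (log2 fold change 0.28, SE 0.15, adjusted p = 0.233, limma).

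Snhg5, which carries the Snord50 pair printed above, was at 30.2, 41.7 and 38.3 FPKM in the controls and at 40.8, 45.1 and 45.9 FPKM in the deletion group. Control 2 exceeded deletion 1 by under 1 FPKM, and the other controls were below all deletion libraries (log2 fold change 0.26, SE 0.12, adjusted p = 0.173, limma). Snhg6, host of Snord87, was at 20.03, 24.6 and 28.4 FPKM in the controls and at 27.3, 30.04 and 37.8 FPKM in the deletion group. Control 3 overlapped deletion 1, and the log2 fold change of 0.37 (SE 0.15) was the second largest of the 5 (unadjusted p = 0.0480, adjusted p = 0.150, limma). Snhg3 gave 1 fragment in control 2, or 0.09 FPKM, and was listed at 0 in the other 5 libraries, where a count of 0 allows up to 3 fragments, so no comparison was made. It overlaps Rcc1, the exchange factor of the Ran GTPase, on the same strand, with annotated starts 81 bases apart. The rule that divided fragments between them was not given in the sources used here.

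**Figure D1:**
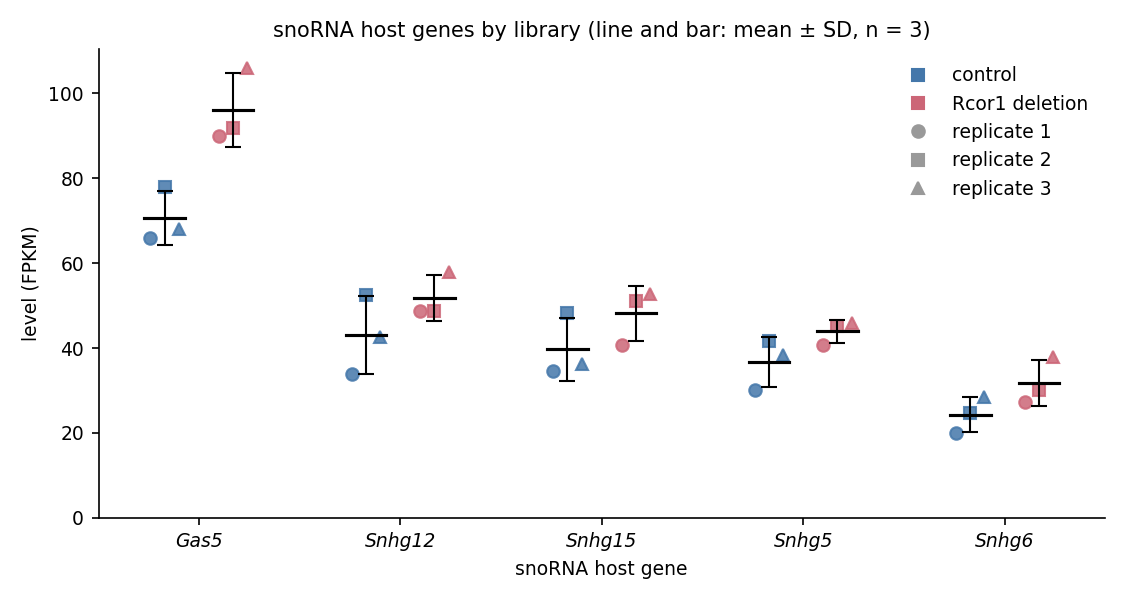
Level in FPKM (vertical axis) of the 5 tested snoRNA host genes (horizontal axis) in each library, with marker shape for the replicate and colour for the group, and the mean ± SD of 3 libraries. Gas5 at 66.0 to 77.9 FPKM in controls and 90.1 to 106 FPKM in the deletion group is the one gene of the 5 whose groups do not overlap.

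These counts are to be read beside all tested genes. Of the 5 host genes tested 1 rose and 0 fell, while 8.95% of the 11575 tested genes rose and 3.08% fell. At an unadjusted p under 0.05, 2 of the 5 (Gas5 and Snhg6) were higher, against 24.6% of all tested genes. Groups that did not overlap with the deletion group higher were found for 1 of the 5, against 29.3% of all. All 5 had a mean log2 fold change above 0, as did 65.3% of all tested genes, and their median was 0.28 against 0.08 over all. Genes passed the filter on low values through their level in either group, and the 3 host genes without a test are not in these counts.

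The 5 genes shared their lowest and their highest library, but not the full order. All 5 were lowest in control 1, and all 5 were highest in deletion 3. The share of all tested genes with the same extremes was not counted, so the pattern is not shown to be particular to the hosts. Within the deletion group all 5 were lowest in deletion 1, with deletion 2 level with it for Snhg12. Within the controls 4 of the 5 were highest in control 2, the exception being Snhg6, which was highest in control 3. Their summed level was 185, 245 and 214 FPKM in the controls and 248, 267 and 300.5 FPKM in the deletion group. The lowest deletion library thus exceeded the highest control by a small margin. The mean sum went from 214 ± 30.1 to 272 ± 26.8 FPKM (SD, n = 3 each), 26.7% higher, with p = 0.1 by the two-sided exact permutation test, its smallest possible value.

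**Figure D2:**
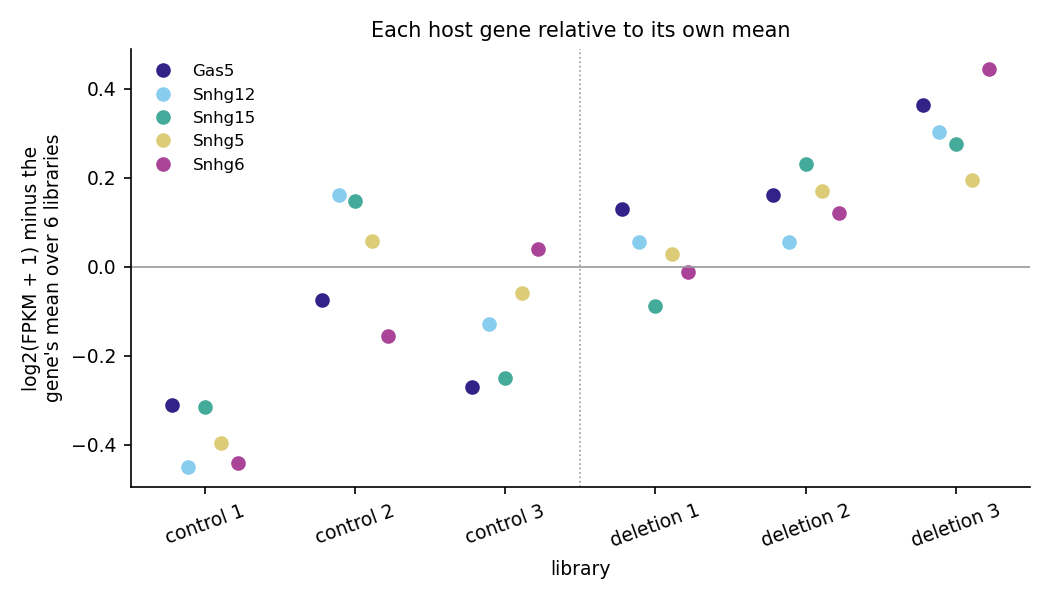
log2(FPKM + 1) of each of the 5 tested host genes minus that gene's mean over the 6 libraries (vertical axis), by library (horizontal axis). All 5 points are lowest in control 1 and highest in deletion 3, and control 2 sits above control 1 for each gene.

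Levels per kilobase had the same order in both groups: Gas5, Snhg12, Snhg15, Snhg5 and Snhg6, with group means from 70.7 FPKM to 24.3 FPKM in controls and from 96.1 FPKM to 31.7 FPKM in the deletion group. The ranges of Snhg12 and Snhg15, and of Snhg15 and Snhg5, overlapped in both groups, so those neighbours in the order do not differ beyond their spread. Gas5 lay above all others and Snhg6 below all others without overlap of ranges. Gas5 made up 31.8% to 36.4% of the summed FPKM of the 5 genes and 58.0% to 62.8% of their fragments, the gap being one of length. The deposited value of Gas5 corresponds to a length of 2556 bases, that of its longest annotated transcript, which retains introns, as do 20 of its 25 annotated transcripts. Lengths of 1004, 816, 933 and 675 bases fitted Snhg5, Snhg6, Snhg12 and Snhg15. The length is the same in every library and leaves fold changes between groups as they are.

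Annotated neighbours of the hosts were looked at because reads of overlapping genes can be mixed. Zbtb37, a zinc finger gene that overlaps Gas5 on the opposite strand with starts 427 bases apart, was at 4.35, 4.03 and 3.37 FPKM in the controls and at 5.27, 6.23 and 6.74 FPKM in the deletion group. It rose, with no overlap of the groups (log2 fold change 0.52, SE 0.11, adjusted p = 0.0310, limma). The strand setting of the counting was not given in the sources used here. Reads of Gas5 and Zbtb37 where they overlap therefore cannot be told apart. Slc3a2, the heavy chain of the CD98 amino acid transporter, starts 106 bases from Snhg1 on the opposite strand. It was at 39.9, 41.2 and 43.2 FPKM in the controls and at 47.1, 51.2 and 54.2 FPKM in the deletion group, and it rose (log2 fold change 0.29, SE 0.07, adjusted p = 0.0388, limma). Rcc1 averaged 24.4 ± 7.04 FPKM in controls and 23.9 ± 3.03 FPKM in the deletion group (SD, n = 3 each, adjusted p = 0.992, limma). Left-out libraries and other scalings moved the adjusted p over 0.0170 to 0.1099 for Zbtb37 and over 0.0116 to 0.127 for Slc3a2, past the threshold in 11 and in 6 of 18 settings.

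Further noncoding host genes that were not among the 8 were looked at in the same fit. Of 13 other noncoding hosts listed, 9 had a row and 7 were tested, of which 1 rose, 0 fell and all 7 had a fold change above 0, with a median log2 fold change of 0.27 against 0.08 over all tested genes. The list was drawn up with earlier results of these data known and is no independent evidence. Snhg14, the long host of tandem snoRNA clusters in the Prader-Willi and Angelman region, was at 3.05, 2.90 and 2.74 FPKM in the controls and at 4.29, 3.86 and 3.80 FPKM in the deletion group. It rose (log2 fold change 0.35, SE 0.08, adjusted p = 0.0370, limma), and it passed the threshold in 7 of 17 other settings, in none of those that leave out 1 library (adjusted p of 0.0535 without control 2 and of 0.0859 to 0.1035 in the others). The number of the 7 that rose, 1 as reported, was 4 without control 2, a fit in which Snhg14 did not pass, 0 without any other single library, 0 after quantile normalization or median-ratio scaling and 4 with equal sums of FPKM. By the annotation, 14 noncoding genes outside the 8 that hold a snoRNA or small Cajal body RNA on their strand were tested. The 7 of the list are among them. Of the other 7, 1 rose, Gm15832, a gene with no assigned name (log2 fold change 0.54, SE 0.09, adjusted p = 0.0179, limma), 0 fell and 5 were higher, with a median log2 fold change of 0.05. The call of Gm15832 was lost in 6 of the 17 other settings that tested it. Its log2 fold change ranged from 0.21 to 0.91 over them.

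Of 24 protein-coding hosts listed and tested, 1 rose, 3 fell and 12 were higher, with a median log2 fold change of -0.03. This balance moved with the scaling, to 5 that rose and 1 that fell (median 0.05) with equal sums of FPKM and to 1 that rose and 6 that fell (median -0.12) after median-ratio scaling. Eef1b2, Tpt1 and Rack1, an elongation factor subunit, the translationally controlled tumour protein and a ribosome-bound scaffold, fell, with log2 fold changes of -0.41, -0.30 and -0.22 and adjusted p of 0.00816, 0.0393 and 0.0407 by limma. The call of Tpt1 was lost in 9 of 18 other settings, with a log2 fold change of -0.01 and an adjusted p of 0.914 after quantile normalization, and that of Rack1 in 10. Rnf149, a ubiquitin ligase, rose from 15.7 ± 0.56 to 23.0 ± 2.10 FPKM (SD, n = 3 each, adjusted p = 0.0102, limma), and its call was lost without deletion 3 (adjusted p = 0.0518, limma). By the annotation, hosts of small Cajal body RNAs again included, 173 protein-coding hosts other than ribosomal protein genes were tested. They gave 9 that rose, 7 that fell and 105 that were higher, with a median of 0.05. The 30 ribosomal protein hosts gave 1 that rose and 17 that fell, with a median of -0.22. The difference between noncoding and coding hosts was not tested.

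Of the 8 core proteins of the box C/D and box H/ACA particles, 0 passed the threshold in either direction. Nop56, Nop58 and Dkc1 are also among the protein-coding hosts listed above, so these lists overlap. The nearest were Nhp2 and Dkc1, both of the H/ACA particle, whose means went from 93.8 ± 13.7 to 70.3 ± 6.02 FPKM (SD, n = 3 each, adjusted p = 0.05995, limma) and from 41.8 ± 3.25 to 34.9 ± 2.36 FPKM (SD, n = 3 each, adjusted p = 0.0753, limma). The list median was -0.10. After median-ratio scaling both fell, with adjusted p of 0.0387 for Nhp2 and 0.0431 for Dkc1, as they did with voom and the same scaling, and with voom on library totals Nhp2 fell. Of 11 assembly factors 0 rose and 1 fell, Znhit6, a factor of box C/D assembly, from 11.3 ± 0.77 to 8.27 ± 0.43 FPKM (SD, n = 3 each, adjusted p = 0.0195, limma). Without control 2, 2 core proteins and 2 assembly factors fell, and without any other single library 0 did.

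Factors of nonsense-mediated decay, which degrades many spliced host transcripts, were called in both directions. Of 17 factors tested, 4 rose and 1 fell, while 8.95% of all tested genes rose and 3.08% fell. Their median log2 fold change was 0.01, against 0.08 over all tested genes. Smg1, the kinase that phosphorylates Upf1, was at 23.5, 25.5 and 18.6 FPKM in the controls and at 32.2, 31.0 and 36.8 FPKM in the deletion group (log2 fold change 0.55, SE 0.12, adjusted p = 0.0341, limma). Upf3a, a paralog of the decay factor Upf3b, was at 45.2, 43.9 and 47.3 FPKM in the controls and at 34.4, 36.5 and 34.4 FPKM in the deletion group and fell (log2 fold change -0.36, SE 0.05, adjusted p = 0.0108, limma). The exonuclease Xrn1 and the exon junction protein Magohb rose as well (adjusted p = 0.0442 and 0.0445, limma), and so did the helicase Upf1 (adjusted p = 0.0489, limma). The count of 4 that rose became 1 without control 2 and 0 without any other single library, and it was 0 without a filter on low values and under quantile normalization or median-ratio scaling. The call of Upf3a was lost without control 1 (adjusted p = 0.0504, limma), without deletion 3 (adjusted p = 0.0597, limma) and in 1 further setting of the 18.

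Of 13 genes listed for the mTORC1 pathway and tested, 0 passed the threshold in either direction. Their median was 0.09, close to the 0.08 of all genes. The 13 include Rictor, a subunit of the related complex mTORC2 (log2 fold change 0.22). The smallest p-values were those of Tsc1 (adjusted p = 0.143, limma) and Rheb (adjusted p = 0.181, limma), an inhibitor and the activating GTPase of the kinase. RNA levels do not measure the activity of the kinase.

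Of the 79 cytosolic ribosomal protein mRNAs tested, which share the pyrimidine tract with many hosts, 1 rose and 45 fell, with a median log2 fold change of -0.25. Rpl36, a protein of the large subunit, was at 2980, 2936 and 3138 FPKM in the controls and at 1621, 1845 and 1683 FPKM in the deletion group (log2 fold change -0.82, SE 0.07, adjusted p = 0.00137, limma). Rps26, Rps27 and Rpl35a fell as well, with log2 fold changes of -0.79, -0.73 and -0.53. The call of Rps27 was lost without a filter on low values (adjusted p = 0.0714, limma). It was also lost after quantile normalization (log2 fold change -0.37, adjusted p = 0.0552, limma). Those of Rps26 and Rpl35a held in all 18 other settings. The number that fell was 14 to 45 over the fits that leave out 1 library, lowest without deletion 3, and 14 under quantile normalization, where 5 rose and the median was -0.06. It was 17 with a replicate block and 37 with equal sums of FPKM. Median-ratio scaling raised it to 55, and to 57 with voom. Ribosomal protein genes have many processed pseudogenes, and the treatment of shared reads was not given in the sources used here.

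**Figure D3:**
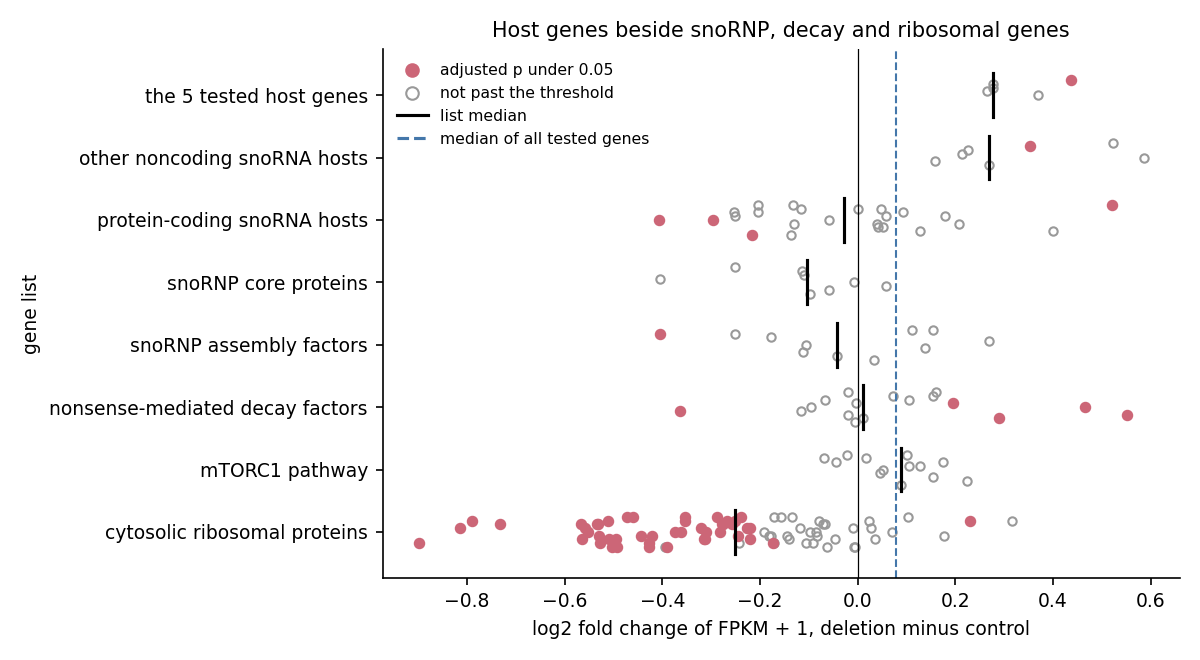
log2 fold change of FPKM + 1, deletion minus control (horizontal axis), of each tested gene in 8 lists (vertical axis), filled where the adjusted p is under 0.05, with the list median as a black bar and the median of all tested genes as a dashed line. The 5 host genes and the 7 other noncoding hosts lie right of 0, and 71 of the 79 ribosomal protein genes lie left of it. Nop56, Nop58 and Dkc1 stand in both the protein-coding host list and the core protein list.

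Because the balance of calls in each direction moved with the scaling between libraries, each host gene was also divided by the summed FPKM of the ribosomal protein genes of the same library, a ratio that no scaling factor changes. This ratio was chosen after the data were seen. Gas5 stood at 0.512, 0.616 and 0.508 FPKM per 1000 FPKM of ribosomal protein genes in the controls and at 0.873, 0.868 and 1.03 in the deletion group. The mean ratio was 1.69-fold higher in the deletion group, and it was 1.49-fold, 1.63-fold, 1.497-fold and 1.51-fold higher for Snhg5, Snhg6, Snhg12 and Snhg15. The groups did not overlap for any of the 5, but the same held, with the deletion group higher, for 75.5% of all 11575 tested genes. The summed ribosomal protein level, the denominator, was itself lower in the deletion group, with no overlap of the groups. The ratio therefore says nothing that is particular to the hosts.

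Under 18 other settings of the processing the 5 host genes kept fold changes above 0 in all 18. The replicate block, the filters and the settings of the variance trend refit the same values, so fold changes could not move there. Direction was open to change in the other settings only. Gas5 ranged over log2 fold changes of 0.34 to 0.52 and passed the threshold in 11 of the 18, with adjusted p of 0.0111 to 0.0882. None of Snhg5, Snhg6, Snhg12 and Snhg15 passed it in any, with adjusted p of 0.0552 at the least. The split of all called genes moved with scaling: 74.4% of them rose as reported, 43.4% after median-ratio scaling, 54.5% after quantile normalization, 49.2% with median-ratio scaling and voom, which models the recovered fragments, and 90.0% with equal sums of FPKM. Gas5 was called as higher in each of these 4.

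**Figure D4:**
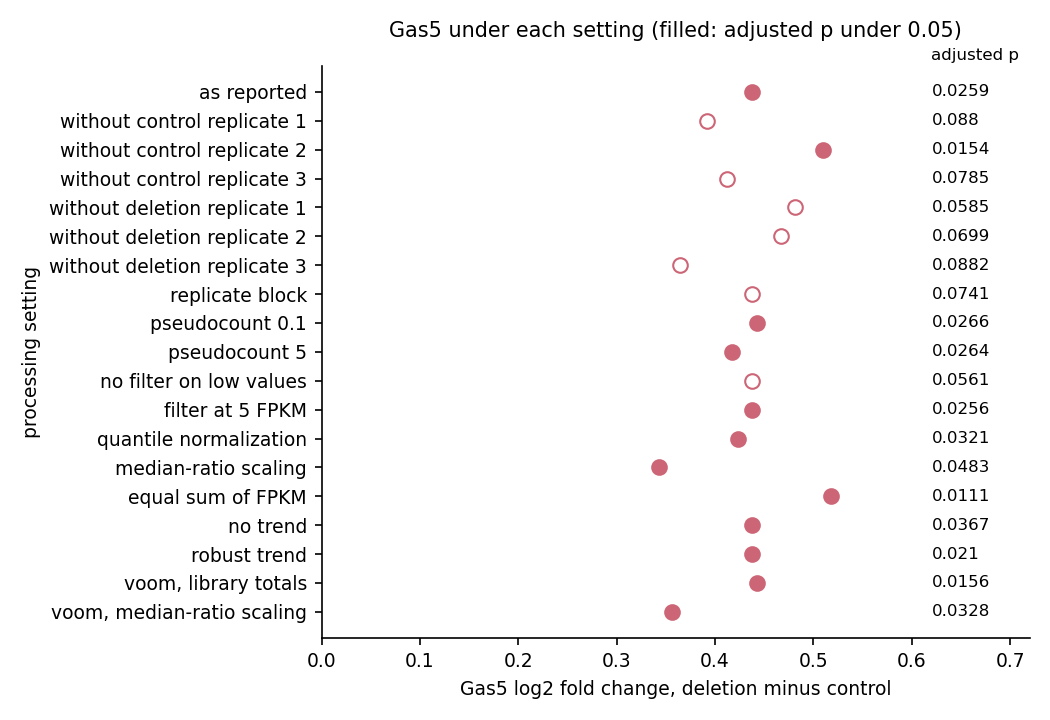
log2 fold change of Gas5, deletion minus control (horizontal axis), as reported and under 18 other settings (vertical axis), filled where the adjusted p printed at the right is under 0.05. Points lie between 0.34 and 0.52, and the open ones are 5 of the 6 fits that leave out a library, the replicate block and the fit without a filter.

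The 5 tested genes outside the 8 whose levels over the 6 libraries were most like the mean log2 profile of the hosts were Eaf2, Wdr83os, Coq2, Klc2 and Fastk, with Pearson r of 0.993, 0.993, 0.992, 0.990 and 0.987. They are a cofactor of the ELL elongation factor, a small membrane protein, an enzyme of coenzyme Q synthesis, a kinesin light chain and a mitochondrial RNA-binding protein. Eaf2 was low, at 0.469 to 1.16 FPKM in the controls and 1.205 to 1.75 FPKM in the deletion group, and rests on 23 to 84 fragments a library. Coq2 was at 20.2, 23.2 and 22.3 FPKM in the controls and at 23.8, 24.3 and 25.6 FPKM in the deletion group, the same order of libraries as the summed hosts. None of the 5 passed the threshold, and with 11575 genes and 6 points high values of r are found for some genes by the size of the search.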

How the data were processed

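Messenger RNA of sorted Foxp3+ Treg was sequenced in 6 libraries, 3 a group, per the labels. The authors deposited 1 table of FPKM values. Per the submitters' processing notes, STAR and the mm10 build were used. How fragments were counted, with which annotation release, filters and strand setting, was not given in the sources used here. Table columns carry the sample descriptions, and 0 stayed unused.

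Symbols, spans and snoRNA sequences came from GENCODE M21 on GRCm38, which mm10 names (34490 identifiers had a symbol and 785 had none), and start windows from RefSeq's GRCm38.p6 promoter table. Library totals and fragments were recovered from the FPKM values, whole within 0.01 fragments for all but 1 of 21898 genes above 0.

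The fit used limma 3.58.1 in R 4.3.3 with a variance trend on log2(FPKM + 1), over the 11575 genes that reached 1 FPKM in 3 or more libraries. This scale understates changes of low genes. Two-sided p-values were adjusted by Benjamini-Hochberg across all of these genes, with a threshold of 0.05. The fit was tested on simulated counts that had the same relative spread for every gene, which the real data need not share. False calls ran above the nominal rate there. Adjusted p-values just under the threshold may therefore be too small, and such calls are weak. Alternatives covered left-out libraries, a replicate block, pseudocounts of 0.1 and 5, filters, scalings, variance models and voom on recovered fragments. Fragment counts speak for counting error only.

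The 8 members and all lists were chosen with earlier results of these data known. Named genes are the 8 members, Rcor1, tested neighbours that overlap a member or start within 2 kb of it, up to 4 called genes a list by smallest p (or the 2 with the smallest p where none passed), and the 5 genes most like the members. Upf1, Gm15832, Ikzf2, Cd22 and Fcrl1 were named to complete a count.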

Additional observations from a re-analysis of the deposited data

How the results depend on the processing

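Fold changes of the 5 tested host genes stayed above 0 under all 18 alternatives, though the replicate block, filters and variance trends cannot move them. The count of host genes that rose, 1 as reported, was 0 to 1 when a single library was left out, 0 with a replicate block and 0 without a filter on low values, where more genes are tested. Over all genes, the 1036 that rose became 161 to 1434 with a library left out, 269 with the replicate block, 566 without a filter, 473 after quantile normalization, 528 after median-ratio scaling and 2501 with equal sums of FPKM, and the 356 that fell became 92 to 428 with a library left out, 135 with the replicate block, 688 after median-ratio scaling and 728 with voom and median-ratio scaling. With the replicate block 0 decay factors, 0 assembly factors and 0 other noncoding hosts passed the threshold. Some of these fits have fewer samples or more genes, and the cause of the shifts in counts was not tested. Deviations from the group means of same-numbered libraries correlated at 0.211, -0.135 and -0.162 over 11575 genes. Not every sample correlated best with its own number: control 3 with deletion 2 gave 0.336 and control 2 with deletion 3 gave 0.185. The deviations of 3 libraries sum to 0 within a group, so these values cannot settle whether libraries are paired. The summed level of the hosts was 18.5% to 36.3% higher with a library left out. Set against ribosomal protein genes, an alternative chosen after the data were seen, it was 57.7% higher. That denominator was itself lower in the deletion group. Rcc1, with a log2 fold change near 0 as reported, ranged over -0.1996 to 0.2056 with a library left out (-0.0929 without deletion 2) and was at -0.0004 with a pseudocount of 5, -0.0617 after quantile normalization, -0.0880 after median-ratio scaling and -0.0775 with voom and median-ratio scaling. Rcor1 was lower in all 18 alternatives, though the replicate block, filters and variance trends cannot move its fold change either. It passed the threshold in 5. With 3 libraries a group, exact permutation tests cannot go below 0.1.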
